A study of Rattus norvegicus with 3 samples.

Results

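Cell cycle and DNA replication genes mark tissue in which cells copy DNA and divide, and 50 of them were followed in the rat retina after a pressure-induced ischemia. They were taken by gene symbol from a fixed list, and 48 of the 50 were found among the 32883 genes of the deposited tables. No symbol was repeated. E2f1 and Ccnb2 were not analysed here. By textbook role, 20 of the 48 were placed in S phase (DNA replication and its supply) and 25 in G2/M (mitosis and its preparation). The remaining 3 were Ccnd1, a cyclin of G1, the transcription factor gene Mybl2 and the histone methyltransferase gene Ezh2.

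RNA came from retinas of Sprague-Dawley rats at postnatal day 60, in 3 libraries. CTL is labelled as without treatment, while the series' protocol speaks of a sham operation with a needle in the anterior chamber at 2.66 kPa. HIOP was taken 12 h after the pressure of the eye had been raised to 110 mmHg for 60 min. HIOP_GSK had the same ischemia 24 h after a drug, named only GSK, had been injected into the anterior chamber. No library of an eye given vehicle alone was analysed here, and the sources do not say how many animals a library holds. Each group is 1 library, so there is no replicate check and no p-value. Folds below are ratios of counts scaled to library size, with a 95% Clopper-Pearson interval that covers counting error only. The libraries held 16090064, 17221510 and 15132754 counts in CTL, HIOP and HIOP_GSK. Sag, the arrestin gene of rods, which marks retina, had 51347, 53170 and 54145 counts. In bulk RNA, more cells of a type and more RNA per cell cannot be told apart.

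A cell that enters the cycle first raises D-type cyclins, which release E2F transcription factors from the retinoblastoma protein. E2F then drives genes of replication, such as those of the MCM helicase, the sliding clamp PCNA and enzymes that make deoxynucleotides. Later the DREAM and MuvB complexes, with MYBL2 and FOXM1, control genes of mitosis through a promoter element called CHR, often beside CCAAT boxes bound by NF-Y. Neurons of the mature mammalian retina are postmitotic, whereas Müller glia, microglia, vessel cells and the epithelia of lens and cornea can divide.

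The promoters are shown first. Without any use of the counts, the letters in them differ in frequency between the S phase and the G2/M genes. They do not fully separate the lists. RefSeq promoters of the rat assembly GRCr8 were matched by symbol for 38 of the 48 genes, from 250 bases before to 50 bases after the start. Only the first listed start of a gene was used. The letters TTTGAA (CHR), CCAAT, and TTGGCGC or TTCCCGC (E2F) were searched on both strands. A CCAAT on the minus strand, read as ATTGG, can share bases with TTGGCGC or with TTTGAA. The 150 bases before the start are printed for 8 genes in 5′ to 3′ direction of the gene, with every match in capitals. Top2a, Mki67 and Cdk1 are G2/M genes far higher in HIOP_GSK, and Prc1 is a G2/M gene that was not:
Top2a (chr10:84473094-84473243, minus strand): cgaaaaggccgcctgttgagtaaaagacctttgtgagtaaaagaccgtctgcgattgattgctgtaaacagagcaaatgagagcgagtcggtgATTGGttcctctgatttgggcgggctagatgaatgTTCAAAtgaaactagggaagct
Mki67 (chr1:199952594-199952743, minus strand): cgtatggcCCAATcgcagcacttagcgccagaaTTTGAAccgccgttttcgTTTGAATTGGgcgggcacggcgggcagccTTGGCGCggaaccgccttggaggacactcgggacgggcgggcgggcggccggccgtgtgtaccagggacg
Cdk1 (chr20:19265143-19265292, plus strand): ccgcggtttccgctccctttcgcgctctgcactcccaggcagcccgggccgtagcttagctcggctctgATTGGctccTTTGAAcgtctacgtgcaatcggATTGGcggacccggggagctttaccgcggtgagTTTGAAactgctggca
Prc1 (chr1:143659331-143659480, plus strand): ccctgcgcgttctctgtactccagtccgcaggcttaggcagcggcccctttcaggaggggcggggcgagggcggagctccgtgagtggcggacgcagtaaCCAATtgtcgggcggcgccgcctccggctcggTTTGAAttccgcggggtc
Mcm3, Mcm5 and Mcm6 are S phase genes with E2F letters near the start, and Tk1 is an S phase gene without a match to any of the 3:
Mcm3 (chr9:30733747-30733896, minus strand): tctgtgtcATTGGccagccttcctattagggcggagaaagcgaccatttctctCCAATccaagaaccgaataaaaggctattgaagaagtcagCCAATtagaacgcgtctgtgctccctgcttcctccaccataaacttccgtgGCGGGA
Mcm5 (chr19:13488663-13488812, plus strand): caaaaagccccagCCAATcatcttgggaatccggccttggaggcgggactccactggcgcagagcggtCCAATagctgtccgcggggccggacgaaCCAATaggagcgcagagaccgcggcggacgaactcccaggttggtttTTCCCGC
Mcm6 (chr13:42404353-42404502, minus strand): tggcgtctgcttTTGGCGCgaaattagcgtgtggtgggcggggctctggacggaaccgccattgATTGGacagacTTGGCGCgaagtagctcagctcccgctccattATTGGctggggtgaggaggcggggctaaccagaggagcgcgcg
Tk1 (chr10:103544778-103544927, minus strand): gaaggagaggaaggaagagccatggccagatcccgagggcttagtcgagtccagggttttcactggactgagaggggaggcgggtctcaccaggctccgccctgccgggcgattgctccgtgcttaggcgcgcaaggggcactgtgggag
In Mcm3 the last base of the E2F match lies past the start and is not printed. These 8 were picked after their values and matches were seen.

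CHR letters were found in 16 of the 20 G2/M promoters and in 1 of the 16 S phase promoters, that of Mcm2. Among all 27457 promoters, 18.1% held them. For E2F letters the order was the opposite, with 10 of 16 S phase and 4 of 20 G2/M promoters, against 6.67% of all. CCAAT was found in 16 of 20 G2/M and 9 of 16 S phase promoters, against 37.7% of all. Both CHR and CCAAT were present in 14 of 20 G2/M promoters, in 0 of the 16 S phase promoters and in 7.25% of all. Of 21 CHR matches in G2/M promoters, 15 lay within the 100 bases before the start. A match is a run of letters and not a measured binding site.

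Of the 48 genes, 44 had their highest CPM (library-scaled counts, summing to about the same in each library) in HIOP_GSK, where 28.6% of all 15543 genes past the filter did. To pass, a gene needed a CPM of 1 or more in any of the libraries. Hells did not pass it. E2f8, Cdk1, Aurkb, Bub1b, Birc5 and Ube2c passed only through HIOP_GSK, so each of these had to differ, and counts of genes below are given over all 48 for that reason. The 4 genes with their highest CPM elsewhere were Tyms and Prc1, highest in CTL, and Hmmr and Hells, highest in HIOP. The median CPM of the S phase genes was 6.49 in CTL, 8.32 in HIOP and 16.1 in HIOP_GSK. For the G2/M genes it was 3.73, 2.57 and 9.27, so the lowest of the 3 values was in HIOP. The list as a whole was not lower there. Its summed CPM was 311, 322 and 446, and 12 of the 25 genes had a log2 ratio of HIOP to CTL above 0.

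**Figure D1:**
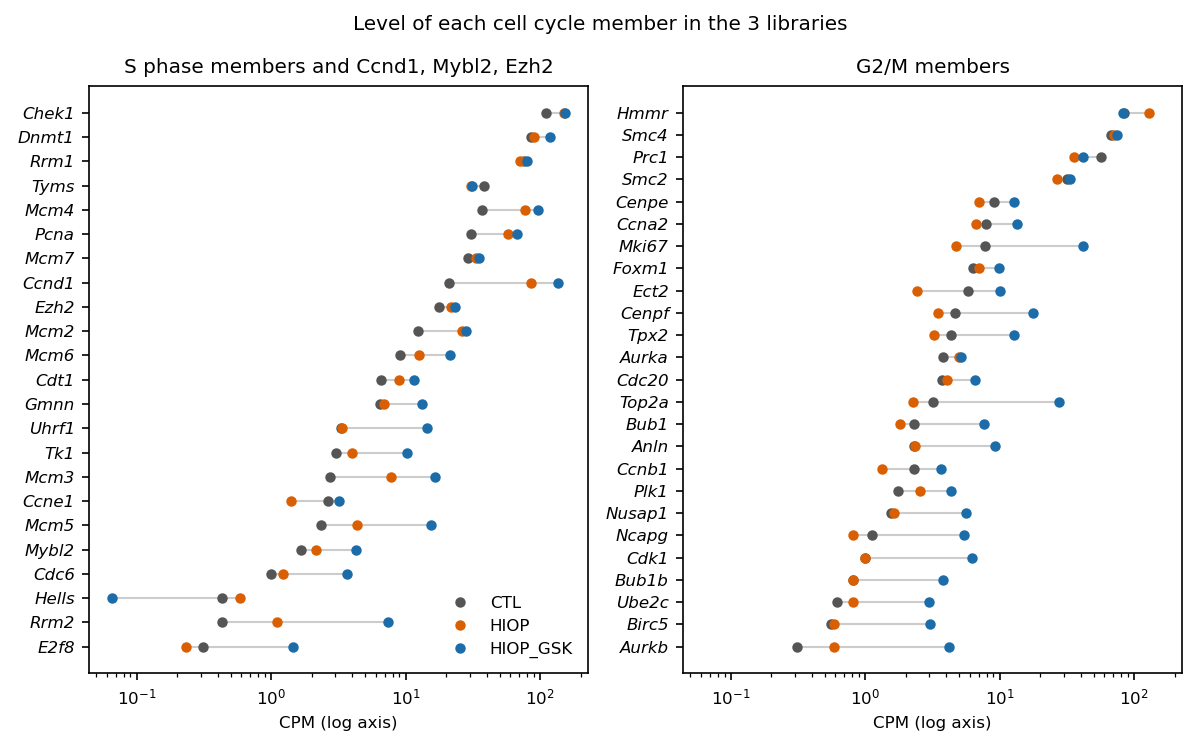
Level of each of the 48 genes as CPM on a log axis, with 1 point per library and genes ordered by their CPM in CTL; left, S phase genes with Ccnd1, Mybl2 and Ezh2, and right, G2/M genes. HIOP_GSK is the rightmost point for all but Tyms, Hells, Prc1 and Hmmr.

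Comparison of HIOP with CTL asked how these genes stood 12 h after ischemia. The limit for calling a gene higher or lower was a 2-fold ratio, taken on log2 CPM with a prior count of 2. Ccnd1 and several MCM genes were higher, and none of the 25 listed G2/M genes reached the limit upward. In all, 5 of 48 were at least 2-fold higher, where 9.0% of all genes were, and 1 was at least 2-fold lower, where 8.04% were. Those 5 were Ccnd1, Mcm2, Mcm3, Mcm4 and Rrm2, and the gene that was lower was Ect2. Both counts are close to or below the background, so the 48 as a list did not stand apart in this comparison. Of the 20 S phase genes 4 were at least 2-fold higher, with a median log2 ratio of 0.36. None of the 25 G2/M genes was, and their median was 0.00, as was the median over all genes. Medians of the phases differed by -0.36 (G2/M minus S phase). The counting intervals of the genes at the medians give a half-width of 1.52 on this difference. That is the error of single genes and not of a median over a list, so whether the phases differed was not tested. By the deposited TPM with a pseudocount of 0.5, 2 genes, Ccnd1 and Mcm3, were at least 2-fold higher.

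Comparison of HIOP_GSK with HIOP asked how the injured retina differed with the drug. Top2a and Mki67 had the largest ratios, while Aurka, Smc4, Prc1 and several other G2/M genes stayed under 2-fold and Hmmr was lower. In all, 23 of 48 were at least 2-fold higher, where 4.56% of all genes were, and 1 was at least 2-fold lower, where 1.69% were. They were 15 of 25 G2/M genes, with a median log2 ratio of 1.71, and 8 of 20 S phase genes, with a median of 0.57. The phase medians differed by 1.14, G2/M above S phase. The half-width from the genes at the medians was 0.95, again the error of single genes, so this difference was not tested either. With genes of a mean CPM of at least 10 (9 S phase, 6 G2/M) the medians were 0.18 and 0.27, a difference of 0.09. Under a mean CPM of 10 (11 and 19 genes) they were 1.34 and 1.92, a difference of 0.58. The mean includes HIOP_GSK, so the ratio itself helps to place a gene: Top2a (3.17, 2.28 and 27.5 CPM in CTL, HIOP and HIOP_GSK) and Mki67 (7.77, 4.73 and 41.5 CPM) are in the upper group through HIOP_GSK. Of all genes past the filter with a mean CPM under 10, 11.5% were 2-fold or more above HIOP. Of the 39 genes with at least 20 counts in both libraries, 15 were at least 2-fold higher.

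HIOP_GSK against CTL uses the same HIOP_GSK and CTL libraries, so it adds no independent evidence. There, 28 of 48 genes were at least 2-fold higher, where 10.4% of all genes were, and 1, Hells, was at least 2-fold lower, where 6.32% were. They were 12 of 20 S phase genes (median log2 ratio 1.16), 14 of 25 G2/M genes (median 1.53), Ccnd1 and Mybl2. The phase medians differed by 0.37, and the half-width from the single genes at the medians was 0.46. The largest ratios to CTL were 16.9-fold for Rrm2 (7.95 to 43.1), 13.5-fold for Aurkb (5.51 to 43.1) and 8.67-fold for Top2a (6.47 to 11.8).

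**Figure D2:**
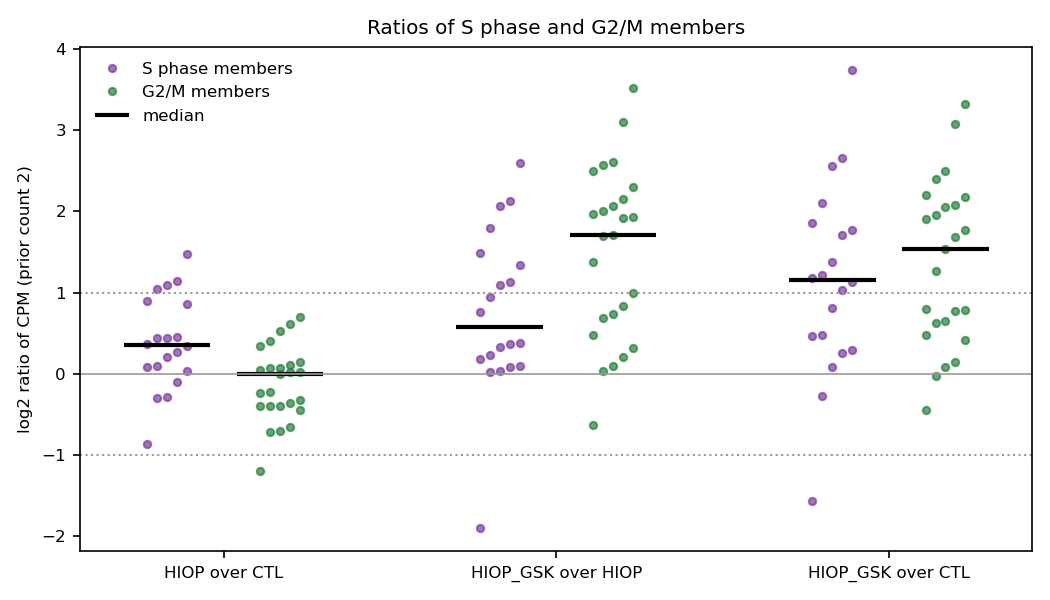
Log2 ratio of CPM (prior count 2) of each S phase and G2/M gene in the 3 comparisons, with the median of each phase as a bar and dotted lines at 2-fold. In HIOP over CTL the S phase median is 0.36 and the G2/M median 0.00, and in HIOP_GSK over HIOP they are 0.57 and 1.71.

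Ccnd1, the D-type cyclin that opens G1, had 341 counts in CTL, 1462 in HIOP and 2054 in HIOP_GSK. It was 4.03-fold higher in HIOP than in CTL (3.58 to 4.55) and a further 1.58-fold higher in HIOP_GSK (1.48 to 1.69). Of the 48 genes it had the largest ratio in HIOP over CTL, and most of its difference from CTL was present without the drug. Ccne1, the E-type cyclin that starts replication, went the other way, with 43, 24 and 49 counts. It was 1.91-fold lower in HIOP (1.13 to 3.28) and 2.30-fold above HIOP in HIOP_GSK (1.38 to 3.91). Its ratio of HIOP_GSK to CTL was 1.21 (0.784 to 1.86).

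The MCM genes encode the 6 subunits of the replicative helicase that is loaded on origins in G1. Mcm2 had 198, 451 and 427 counts in CTL, HIOP and HIOP_GSK. Mcm4 had 601, 1316 and 1475. Both were higher in HIOP, by 2.14-fold (1.81 to 2.54) and 2.06-fold (1.87 to 2.27). In HIOP_GSK they were 1.07-fold (0.931 to 1.22) and 1.26-fold (1.17 to 1.36) above HIOP. Mcm3, with 44, 133 and 254 counts, was higher at both steps, by 2.84-fold (2.01 to 4.09) and by 2.15-fold (1.74 to 2.67). Mcm5, with 38, 75 and 235, was 1.86-fold higher in HIOP (1.24 to 2.82) and 3.53-fold above HIOP in HIOP_GSK (2.71 to 4.64). Mcm6 had 147, 215 and 326 counts and smaller steps, of 1.38-fold (1.11 to 1.71) and 1.71-fold (1.43 to 2.04). Mcm7 had 467, 575 and 539 counts and ratios of 1.16 (1.02 to 1.31) and 1.05 (0.936 to 1.19). All 6 had their highest CPM in HIOP_GSK, and the sum over the 6 was 92.9, 162 and 214 CPM in CTL, HIOP and HIOP_GSK. The 6 subunits work as 1 ring, yet the ratio of HIOP_GSK to CTL ran from 1.22-fold for Mcm7 (1.08 to 1.38) to 6.54-fold for Mcm5 (4.63 to 9.48).

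Origins are licensed by CDC6 and CDT1, and geminin, the product of Gmnn, blocks a second licensing. Cdc6 had 16, 21 and 56 counts in CTL, HIOP and HIOP_GSK and was 3.00-fold above HIOP in HIOP_GSK (1.79 to 5.22). Cdt1 had 105, 152 and 175, a smaller and steadier difference. Gmnn, with 104, 118 and 203, was 1.94-fold higher in HIOP_GSK (1.54 to 2.45), just under the limit. Pcna, the clamp that holds DNA polymerase and that also serves DNA repair, had 497, 987 and 1030 counts. It was 1.87-fold higher in HIOP (1.67 to 2.08) and 1.17-fold higher again in HIOP_GSK (1.07 to 1.28), so it followed the pattern of Mcm2 and Mcm4. Chek1, the kinase of the replication checkpoint, had 1774, 2561 and 2337 counts and was 1.36-fold higher in HIOP (1.28 to 1.44).

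Enzymes of deoxynucleotide supply diverged. Rrm2, the subunit of ribonucleotide reductase that is made in S phase, had 7, 19 and 112 counts in CTL, HIOP and HIOP_GSK. It was 6.63-fold above HIOP in HIOP_GSK (4.05 to 11.4), the largest ratio of the S phase genes. Its partner Rrm1, the large subunit, had 1229, 1217 and 1225 counts, and its ratio of HIOP_GSK to HIOP was 1.13 (1.05 to 1.23). Tk1, the thymidine kinase of dividing cells, had 49, 68 and 156 counts and was 2.58-fold higher in HIOP_GSK (1.93 to 3.48). Tyms, thymidylate synthase, had 612, 529 and 478, with CTL highest. Per length, in the deposited TPM, Rrm1 stood at 37.3 and Rrm2 at 0.320 in CTL, and at 35.4 and 7.60 in HIOP_GSK.

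Among genes of replicated chromatin, Uhrf1, which guides DNA methylation to new strands, had 53, 58 and 221 counts in CTL, HIOP and HIOP_GSK. Its ratio of HIOP to CTL was 1.03 (0.697 to 1.52), and it was 4.29-fold above HIOP in HIOP_GSK (3.20 to 5.83). Dnmt1, the methyltransferase it recruits, had 1384, 1554 and 1802 counts and was 1.30-fold higher (1.22 to 1.40). Hells, a chromatin remodeller, had 7, 10 and 1 counts with a TPM of 0 in every library, so its ratio, 8.89-fold below HIOP in HIOP_GSK (1.26 to 386), rests on very few reads. Ezh2, of Polycomb complex 2, had 287, 374 and 354 counts. E2f8, a repressor of the E2F family that is itself made in S phase, had 5, 4 and 22 counts and was 6.19-fold higher in HIOP_GSK (2.10 to 24.7).

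Top2a encodes the topoisomerase that untangles chromosomes and Mki67 a protein that coats them in mitosis. Top2a had 51, 39 and 418 counts in CTL, HIOP and HIOP_GSK. Mki67 had 125, 81 and 632. In HIOP both were below CTL in counts, Mki67 by 1.64-fold (1.23 to 2.20), and in HIOP_GSK they had the 2 largest ratios to HIOP, 12.1-fold for Top2a (8.67 to 17.2) and 8.78-fold for Mki67 (6.96 to 11.2). Ncapg, a subunit of the condensin that compacts chromosomes, had 18, 14 and 83 counts and was 6.67-fold higher (3.76 to 12.7). Smc2 and Smc4, the core of the same condensin, did not follow it. Smc2 had 509, 457 and 509 counts and Smc4 1081, 1204 and 1136, and their ratios of HIOP_GSK to HIOP were 1.25 (1.10 to 1.42) and 1.06 (0.978 to 1.15).

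The kinase CDK1 and its cyclins drive entry into mitosis. Cdk1 had 16, 17 and 94 counts in CTL, HIOP and HIOP_GSK and was 6.22-fold above HIOP in HIOP_GSK (3.69 to 11.1). Ccna2, the cyclin of S phase and G2, had 127, 115 and 206 counts, a ratio of 2.02 (1.60 to 2.55) that fell just below the limit once the prior count was added. Ccnb1, the mitotic cyclin, had 37, 23 and 56 and was 2.74-fold higher (1.66 to 4.66). Here HIOP was the lowest of the 3 libraries for both cyclins. Foxm1, the transcription factor of mitotic genes, had 102, 120 and 150 counts, and Mybl2, which acts with MuvB before it, had 27, 37 and 65. Their ratios of HIOP_GSK to HIOP were 1.41 for Foxm1 (1.10 to 1.80) and 1.98 for Mybl2 (1.30 to 3.04).

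Genes of the kinetochore and the chromosomal passenger complex were all higher in HIOP_GSK in counts. Aurkb, the kinase of that complex, had 5, 10 and 64 counts in CTL, HIOP and HIOP_GSK and was 7.20-fold higher than in HIOP (3.67 to 15.7). Birc5, survivin, had 9, 10 and 46 and was 5.18-fold higher (2.58 to 11.5). Cenpf, a kinetochore protein, had 75, 60 and 270 and was 5.06-fold higher (3.81 to 6.81). The spindle checkpoint genes Bub1 and Bub1b had 37, 31 and 116 counts and 13, 14 and 58 counts. They were 4.21-fold (2.81 to 6.48) and 4.66-fold higher (2.57 to 9.05). Cenpe, a kinetochore motor, moved less, with 147, 121 and 194 counts and a ratio of 1.80 (1.43 to 2.28).

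Spindle genes were mixed. Tpx2, which nucleates spindle microtubules, had 70, 56 and 194 counts in CTL, HIOP and HIOP_GSK and was 3.90-fold above HIOP in HIOP_GSK (2.88 to 5.35). Nusap1, which bundles them, had 25, 28 and 85 and was 3.42-fold higher (2.21 to 5.44). Aurka, the kinase that TPX2 activates, had 61, 86 and 78 counts, and a ratio of 1.02 (0.741 to 1.40). Plk1, a kinase of spindle poles and mitotic entry, had 28, 44 and 66 and was 1.69-fold higher (1.14 to 2.53). Hmmr, a spindle protein that is also a hyaluronan receptor, had 1356, 2197 and 1258 counts. It was 1.52-fold higher in HIOP than in CTL (1.42 to 1.63) and 1.55-fold lower in HIOP_GSK than in HIOP (1.45 to 1.67), against the direction of every other G2/M gene in the latter.

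Genes for the exit from mitosis and for cytokinesis came next. Cdc20, the activator of the anaphase-promoting complex, had 60, 69 and 100 counts in CTL, HIOP and HIOP_GSK, and Ube2c, its ubiquitin-conjugating enzyme, had 10, 14 and 45. Ube2c was 3.62-fold above HIOP in HIOP_GSK (1.95 to 7.13) and Cdc20 1.63-fold (1.19 to 2.25). Anln, a scaffold of the cleavage furrow, had 37, 40 and 141 counts and was 3.97-fold higher (2.77 to 5.78). Ect2, which activates a small GTPase at the furrow, had 93, 42 and 152 counts. It was the G2/M gene that was 2.35-fold lower in HIOP than in CTL (1.62 to 3.48), and it was 4.07-fold above HIOP in HIOP_GSK (2.88 to 5.88). Prc1, which bundles midzone microtubules, had 915, 615 and 634 counts, was 1.58-fold lower in HIOP (1.43 to 1.76) and had a ratio of 1.16 in HIOP_GSK over HIOP (1.04 to 1.30).

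**Figure D3:**
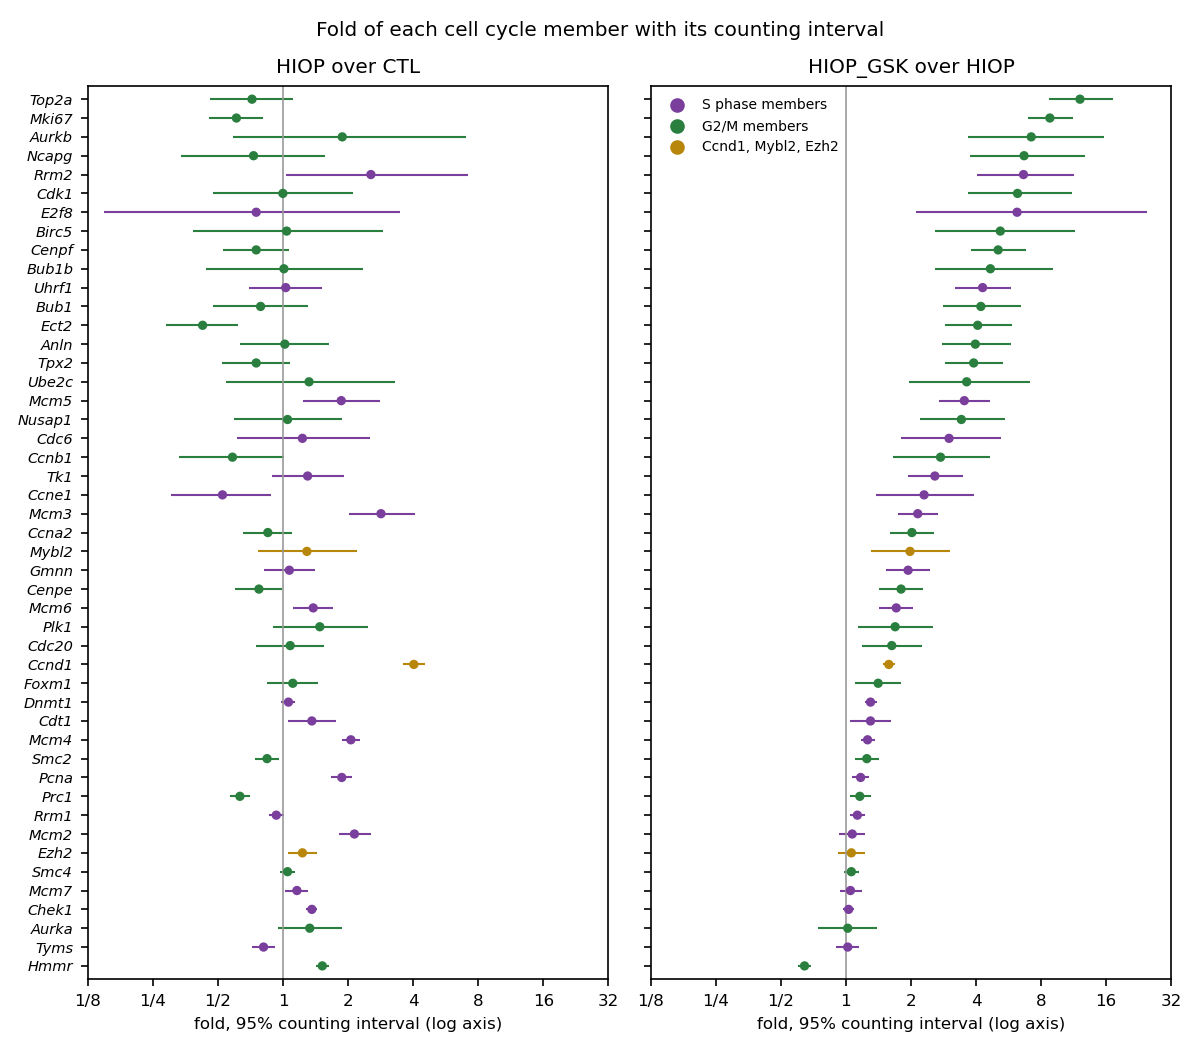
Fold of each gene with its 95% counting interval on a log axis, for HIOP over CTL on the left and HIOP_GSK over HIOP on the right, ordered by the latter and coloured by phase; Hells, with 10 counts in HIOP and 1 in HIOP_GSK, is left out. Top2a and Mki67 lead on the right at 12.1-fold and 8.78-fold, and Ccnd1 has the largest fold on the left at 4.03.

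In the deposited TPM, which is per length, the highest levels in CTL among the 48 were those of Pcna at 41.3, Hmmr at 38.3, Rrm1 at 37.3, Chek1 at 29.7, Tyms at 24.5 and Prc1 at 24.4. Top2a stood at 0.730, Mki67 at 0.930 and Cdk1 at 0.920 TPM in CTL, and at 6.71, 5.23 and 7.41 TPM in HIOP_GSK. Of the 48 genes, 19 overlap another gene in the RefSeq table, among them Prc1, Smc2, Smc4, Ect2, Ncapg and Rrm2, and since the strand setting of the counting is not given in the sources used here, part of their counts is uncertain. Hmmr, Chek1 and Rrm1 are not among these. Without the 19, 15 of 29 genes were 2-fold or more above HIOP in HIOP_GSK.

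Set beside the promoters printed above, 10 of the 16 G2/M genes with CHR letters reached 2-fold upward in HIOP_GSK over HIOP (median log2 ratio 1.95), with a range from -0.63 to 3.52. Of the 4 without, Aurka, Bub1, Ccnb1 and Cenpe, 2 did (median 1.10). Prc1, Hmmr, Smc2 and Smc4 hold the CHR letters too and were within 2-fold. Among S phase genes, 2 of 10 with E2F letters and 3 of 6 without were at least 2-fold higher. Their median log2 ratios were 0.28 and 0.75. With so few genes an arm, whether the letters go with the ratio within a list was not tested.

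Other genes of the same phases were taken from a wider list of textbook S phase and G2/M genes. In HIOP_GSK over HIOP, 14 of 35 other G2/M genes reached 2-fold upward and 0 reached it downward (median log2 ratio 0.82), where 4.56% of all genes and 11.5% of those with a mean CPM under 10 reached it upward. Cdca3, Cdca2, Cenpa and, in the lists that follow, Exo1 and E2f7 passed the filter only through HIOP_GSK, so each of them had to differ, and Pimreg, among the 14, did not pass it. Cdca3, a trigger of mitotic entry, had 11, 13 and 68 counts in CTL, HIOP and HIOP_GSK and was 5.88-fold higher than in HIOP (3.22 to 11.6). Cdca2, which targets a phosphatase to chromosomes, had 11, 13 and 61 and was 5.28-fold higher (2.87 to 10.5), and Kif23, a kinesin of cytokinesis, had 114 counts in HIOP_GSK against 33 in HIOP, 3.89-fold (2.62 to 5.91). Cenpa, the histone of centromeres, had 1, 2 and 20 counts, 11.3 as a ratio to HIOP (2.73 to 99.3). Of the other S phase genes, 3 of 30 reached 2-fold upward (median 0.26). These were Dtl, of an E3 ligase that destroys CDT1 (19 and 92 counts, 5.45-fold, 3.30 to 9.46), the exonuclease gene Exo1 (7 and 31 counts, 4.98-fold, 2.15 to 13.4) and Cenpu (18 and 48 counts, 3.00-fold, 1.71 to 5.48).

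In HIOP over CTL, 3 of 30 other S phase and 3 of 35 other G2/M genes were at least 2-fold higher, with medians of 0.17 and 0.13. These shares are close to the 9.0% of all genes. Ung, which removes uracil from DNA, had 24 counts in CTL and 87 in HIOP, 3.41-fold higher (2.15 to 5.60), while Clspn, the adaptor for CHEK1, was 2.17-fold lower (1.79 to 2.63). Kif11, the kinesin that pushes spindle poles apart, had the largest ratio of these, with 113, 1800 and 1034 counts, 15.0-fold above CTL in HIOP (12.4 to 18.3). Its deposited TPM was 1.88 in CTL and 24.2 in HIOP.

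Regulators upstream of E2F were mixed. Cdk6, a partner of D-type cyclins, had 108, 467 and 384 counts in CTL, HIOP and HIOP_GSK and was 4.07-fold higher in HIOP (3.29 to 5.06), the 1 of 6 G1 cyclins and kinases past 2-fold. Of 6 CDK inhibitor genes 2 were 2-fold or more above CTL in HIOP. Among all genes, 9.0% were. Cdkn1a, the p21 inhibitor that p53 induces, had 111, 384 and 354 counts, 3.25-fold higher (2.63 to 4.05) with a ratio of HIOP_GSK to HIOP of 1.04 (0.895 to 1.20). Cdkn2b had 10 and 24 counts, 2.26-fold (1.04 to 5.29). In HIOP_GSK over HIOP no gene of these 2 lists was 2-fold different in either direction, with median log2 ratios of 0.07 and -0.09. Of 15 genes of the RB, E2F and DREAM list, none was 2-fold different in HIOP. In HIOP_GSK over HIOP 1 was at least 2-fold higher, where 4.56% of all genes were. It was E2f7, the close relative of E2f8, with 15, 8 and 34 counts, 4.78-fold above HIOP (2.17 to 12.0).

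**Figure D4:**
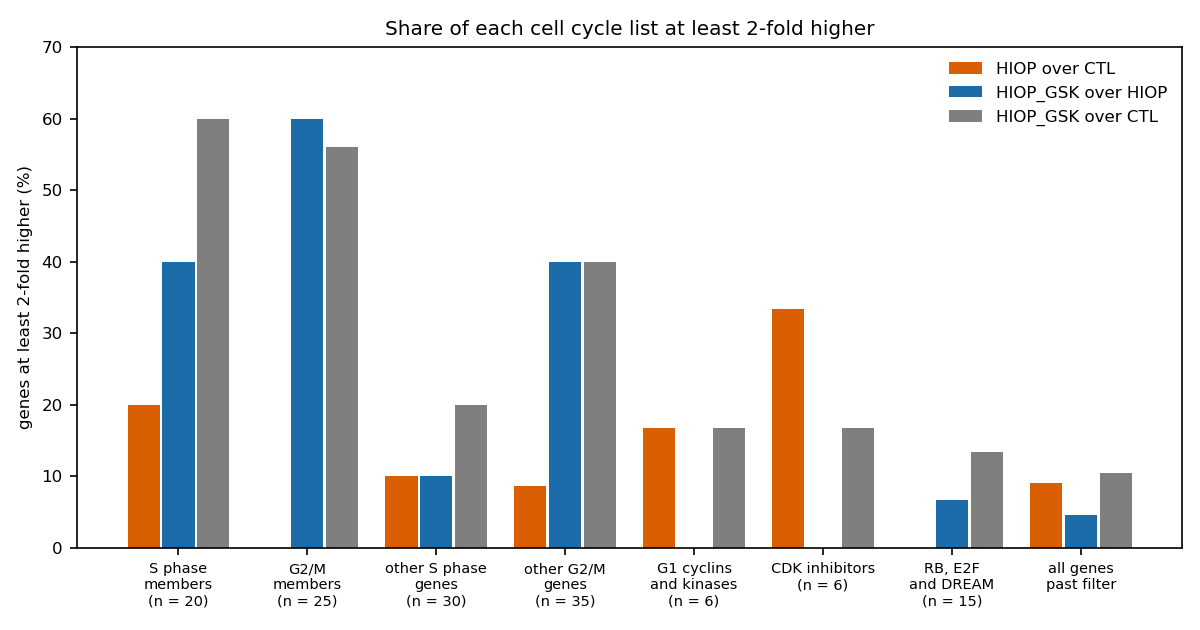
Percent of the genes of each cell cycle list that were at least 2-fold higher in each comparison, with all 15543 genes past the filter at the right; bars start at 0 and a missing bar is 0. In HIOP_GSK over HIOP the tall bars are the 2 phase lists and the other G2/M genes, against 4.56% of all genes.

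Marker lists of several cell types moved between the libraries as well, and their part in these results was not tested. Of all genes, 4.56% were 2-fold or more above HIOP in HIOP_GSK and 28.6% had their highest CPM in HIOP_GSK. The microglia and macrophage list (11 genes found) summed to 55.1, 186 and 327 CPM in CTL, HIOP and HIOP_GSK, with 8 of 11 2-fold or more above HIOP in HIOP_GSK and none at 0 counts. Its most abundant gene, Lyz2, had 177, 1980 and 2438 counts, while Cx3cr1 had 64, 27 and 126. The 9 neutrophil and monocyte genes summed to 124, 573 and 462 CPM, but Vcan alone gave 123, 446 and 310.3 CPM of it. Of the 9 genes, 5 were highest in HIOP_GSK and 3 in HIOP, and 2 were 2-fold or more above HIOP in HIOP_GSK. Mpo had 0 counts in all 3 libraries, and Elane had 0, 0 and 8. The 10 lens fiber genes summed to 1092, 2822 and 9988 CPM, with 9 of 10 2-fold or more above HIOP in HIOP_GSK.

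The 10 lens epithelium genes summed to 1657, 3154 and 7374 CPM, but Cryaa alone gave 692, 1810.3 and 5244 CPM of it. Of the 10, 4 were 2-fold or more above HIOP in HIOP_GSK, where 4.56% of all genes were. These 4, Cryaa, Mip, Bfsp1 and Lim2, are also in the lens fiber list, so they count in both lists. The other 6, Pax6, Foxe3, Cdh1, Cryab, Gja1 and Pitx3, were within 2-fold. Foxe3, the transcription factor of lens epithelium, had 121, 88 and 61 counts. Of the 10 genes, 6 were highest in HIOP_GSK, where 28.6% of all genes were. These 6 were Cryaa, Cryab, Mip, Bfsp1, Lim2 and Pitx3. Corneal and conjunctival genes (10) summed to 310.5, 27.5 and 101 CPM, with 9 of 10 2-fold or more above HIOP in HIOP_GSK and Kera at 0 in HIOP. Their sum was highest in CTL, where 6 of the 10 genes were highest, and the other 4, Krt14, Krt15, Krt4 and Krt13, were highest in HIOP_GSK. The 9 Müller glia genes summed to 4317, 2534 and 3152 CPM and the 10 retinal progenitor genes to 749.5, 628 and 708. Endothelial and pericyte genes (9) summed to 759, 435 and 537, but Kdr alone gave 569.7, 299 and 316 CPM of it. Each sum was highest in CTL, where 7, 7 and 5 of the genes were highest. In HIOP_GSK 3, 1 and 2 of them were 2-fold or more above HIOP. The other 4 endothelial and pericyte genes were highest in HIOP_GSK. Astrocyte genes (4) summed to 85.7, 57.6 and 184 CPM, of which Gfap alone gave 36.0, 37.5 and 162, and 1 of the 4 was 2-fold or more above HIOP in HIOP_GSK. The 7 T and B cell genes summed to 7.70, 4.97 and 6.64 CPM, the lowest of all lists.

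**Figure D5:**
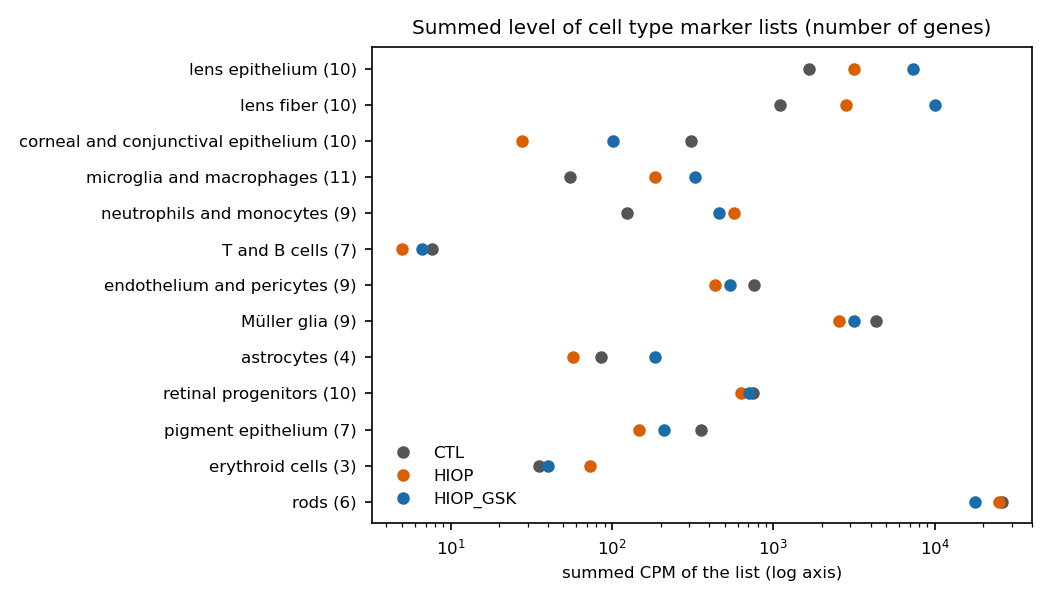
Summed CPM of each cell type marker list in the 3 libraries on a log axis, with the number of genes found in brackets. The lens and the microglia and macrophage lists run upward from CTL through HIOP to HIOP_GSK. The lens epithelium and lens fiber lists share Cryaa, Mip, Bfsp1 and Lim2.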

How the data were processed

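Total RNA of 3 rat retina libraries was depleted of ribosomal RNA and made into directional libraries, per the labels' protocols. The deposited count columns hold whole numbers per gene, not normalized, and the deposited TPM columns have the same sum in each library. STAR 2.5.4b, RSEM 1.3.1 and Rnor_6.0 are named in the submitters' processing notes without their roles, and the strand setting is not given in the sources used here. Counts and TPM differ for some genes: a TPM of 0 stood beside 20 or more counts for 566 genes in CTL, 545 in HIOP and 503 in HIOP_GSK.

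Counts were scaled with edgeR 4.0.16 TMM factors (1.000, 0.994 and 1.006). Log2 ratios used CPM with a prior count of 2, and folds used scaled counts with exact Clopper-Pearson bounds (scipy 1.17.1), whose calculation was checked on simulated counts. Since reads carried no stated molecular identifiers, intervals cover counting error only. With 1 library per group no test across libraries was made. The genes and lists were chosen with earlier results of these data known. Folds with intervals were to be printed for genes whose bound nearer to no difference reached 1.5-fold, up to 30 per comparison, and for up to 4 genes per wider list; others are named to complete a pathway. The alternatives were other scaling (total counts, DESeq2 1.42.0 size factors), TPM, filters, prior counts, a limit of 1.5-fold and other phase lists. A few genes of the wider lists are left out of the text.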

Additional observations from a re-analysis of the deposited data

How the results depend on the processing

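No paired analysis was possible because each group is 1 library, and for the same reason no library could be left out. Across 15 results (counts of genes past 2-fold and phase medians of log2 ratios, in 3 comparisons), 129 of 160 alternative values stayed within 1.5 times the count, or moved a median by less than the counting half-width of its middle genes, and 31 moved by more. Those half-widths are the counting error of single genes and not of a median. For the medians in HIOP over CTL (0.36 and 0.00) they are 1.07 and 1.08, wider than the values. That comparison thus says nothing about the stability of these medians. The difference between the phase medians in HIOP_GSK over CTL, 0.37, changed sign in both subsets by level given below.

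Counts of genes at least 2-fold higher in HIOP over CTL moved from 5 to 2 with TPM and to 9 at a limit of 1.5-fold, where 5 rather than 1 were lower. In HIOP_GSK over HIOP the 23 higher genes became 15 among those with at least 20 counts in both libraries, and 15 without genes that overlap another. The 1 lower gene there, Hells, became 0 with TPM, with either CPM filter, with a prior count of 10, and in those same subsets, and 2 genes were lower at 1.5-fold. In HIOP_GSK over CTL it became 0 with TPM, with either filter and with a prior count of 10.

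The S phase median in HIOP_GSK over HIOP, 0.57, was 0.76 both with the filter at a CPM of 1 in 1 library and without 6 genes of unclear phase (Ccna2, Gmnn, Foxm1, Smc2, Dnmt1, Chek1), and 0.38 without overlapping genes. The G2/M median in HIOP_GSK over CTL, 1.53, was 1.09 with TPM and 1.97 without overlapping genes. It exceeded the S phase median by 0.04 with TPM and by 0.89 without overlapping genes, rather than by 0.37. In HIOP_GSK over HIOP the difference of 1.14 between the phase medians was 0.76 with TPM and 1.66 without overlapping genes. Among genes of a mean CPM of at least 10 the S phase and G2/M medians were 0.18 and 0.27 in HIOP_GSK over HIOP (difference 0.09) and 0.48 and 0.12 in HIOP_GSK over CTL (difference -0.36). Under a mean CPM of 10 the S phase medians were 1.34 and 1.77, and the difference in HIOP_GSK over CTL was -0.09. The mean includes HIOP_GSK, so the ratio helps to set these subsets. The subsets by level, by 20 counts and by overlap were chosen after seeing the data. Genes with under 20 counts in a library have wide intervals, and differences under about their bounds were not detectable at this depth.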
